A study of Mus musculus with 6 samples.

Results

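Retinoid supply genes and steroidogenic genes were compared between primary mouse Sertoli cells and the MSC-1 Sertoli cell line. The 7 genes are Rbp4, Rdh10, Adh7, Aldh1a2, Cyp26b1, Star and Akr1cl. They were taken by symbol or older alias from the authors' table of genes that differed by 4-fold or more, which lists 3198 probe sets, and they account for 11 of those probe sets and for 7 of its 2291 genes with a symbol of their own. A probe set is the group of short oligonucleotides that measures 1 transcript on an Affymetrix array. Because the table was selected on the size of this very difference, every member had to differ, and the tests below describe its size against the spread between arrays without being independent evidence of it.

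Primary Sertoli cells of C57BL/6 x 129 mice were measured after aggregation in 3 samples, against 3 of MSC-1 cells that were aggregated too. MSC-1 is a line grown out of a testis tumour of mice in which the promoter of anti-Mullerian hormone drives the SV40 large T antigen. Aggregation took 48 h with 10% serum present for both kinds of cells, and neither was treated further. The donor mice were 10 to 20 days old according to the growth protocol and 19 to 20 days old according to the series design. MSC-1 stands for a single tumour line, and the labels leave unsaid if a group's 3 samples came from separate cultures, animals or pools, so p-values measure only the spread between these samples.

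Vitamin A travels in the blood as retinol, bound to the carrier protein that Rbp4 encodes. Cells oxidise retinol reversibly to retinal, with retinol dehydrogenases such as RDH10 and alcohol dehydrogenases such as ADH7, and retinal irreversibly to retinoic acid, with the ALDH1A enzymes. CYP26 enzymes break retinoic acid down. In the testis retinoic acid starts the differentiation of spermatogonia and their entry into meiosis, and Sertoli cells take part in both its supply and its removal. StAR, the product of Star, carries cholesterol to the inner mitochondrial membrane, the first step of steroid synthesis, and is best known from Leydig and adrenal cells. Akr1cl belongs to the aldo-keto reductase family 1, whose C members include steroid-reducing enzymes.

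Signals were linear, and the deposited scaling gave every array the same trimmed mean. The array medians still differed by up to 1.29-fold, so signals were rescaled to a common median of 26.4, and all signals below are on that scale. Correlations between arrays on the log2 scale were 0.94 to 0.97 among primary samples, 0.96 among MSC-1 samples and 0.80 to 0.81 between the groups. Each gene was tested with limma on log2(signal + 1.53), two-sided, with Benjamini-Hochberg adjustment over all 45101 probe sets, and this scale understates the change of weak signals. At an adjusted p under 0.05, 39.5% of all probe sets were called, 14.2% as higher in primary cells and 25.3% as higher in MSC-1 cells. With the deposited scaling, 48.5% of the calls were on the primary side, against 35.9% here, and the median log2 difference over all probe sets was -0.04, against -0.25 here. The smallest difference of a member, 2.39 in size, is far larger than that shift.

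The value table also settled the direction of the authors' folds: the sign of all 3198 was that of the primary over MSC-1 ratio of signals, so a positive fold means higher in primary Sertoli cells. Rbp4, Rdh10, Aldh1a2 and Star were higher in primary cells, in 7 probe sets, and Adh7, Cyp26b1 and Akr1cl were higher in MSC-1 cells, in 4 probe sets. All 11 member probe sets passed the test, with adjusted p between 2.06e-05 and 0.00097 (limma), and in none did the groups overlap. Neither is particular to the members, since 3197 of the 3198 listed probe sets passed the same test (100% after rounding, 59.5% higher in primary cells, 40.5% higher in the line) and 100% of them had groups that do not overlap, as had 53% of all probe sets on the arrays. Calls of at least 4-fold made up 12.5% of all probe sets, 7.4% higher in primary cells and 5.09% higher in MSC-1 cells. In such bulk samples fewer cells of a type and less RNA per cell cannot be told apart.

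**Figure D1:**
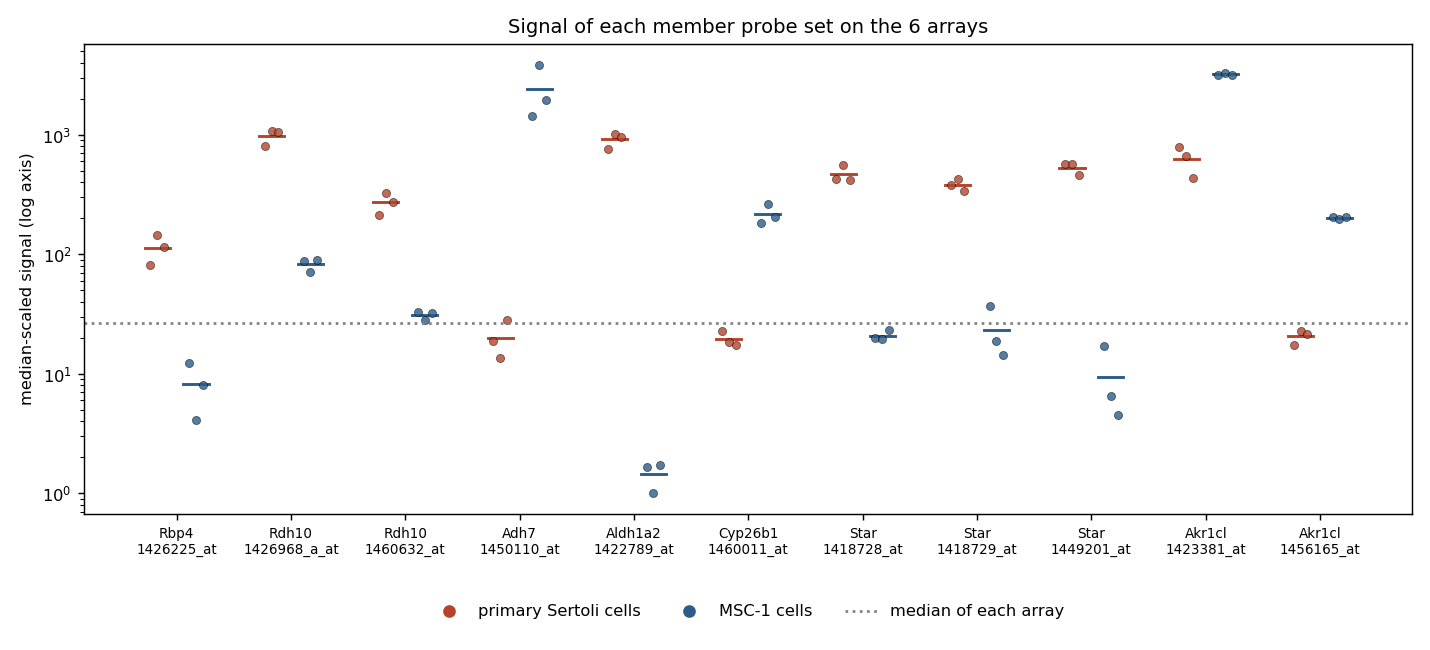
Median-scaled signal, on a log axis, of the 11 member probe sets on the 3 primary Sertoli cell arrays (red, left) and the 3 MSC-1 arrays (blue, right), with group means as bars and the common array median of 26.4 as a dotted line. Aldh1a2 lies near 1 in MSC-1 cells and Adh7 near the array median in primary cells, and no probe set has overlapping groups.

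Rbp4, the gene of the retinol carrier, had signals of 80.6, 145.8 and 114.7 in primary Sertoli cells and of 12.4, 4.12 and 8.11 in MSC-1 cells. Its only listed probe set was thus weak in MSC-1 cells, where 20.5% to 37.3% of the probe sets of the same array were weaker still. On the log2 scale the difference was 3.62 ± 0.39 (SE, n = 3 and 3), with a 95% interval of 2.67 to 4.57 and an adjusted p of 0.000947 (limma). With every signal under the array median raised to that median, its difference was 2.07, or 4.18-fold.

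Rdh10, the dehydrogenase that makes most of the retinal for retinoic acid synthesis in the mouse embryo, was measured by a pair of listed probe sets. Probe set 1426968 had signals of 810.4, 1070.3 and 1052.5 in primary cells and of 87.0, 71.4 and 89.6 in MSC-1 cells. Probe set 1460632, which the table files under the spelling RDH10, had signals of 213.9, 325.7 and 274.9 in primary cells and of 33.1, 28.0 and 32.2 in MSC-1 cells. Both stayed above the array median in every MSC-1 sample, but 1460632 lay close to it, with 50.89% to 53.05% of probe sets weaker. Raising weak signals to the array median changes no signal of 1460632, so it cannot test the part of background there. Its difference in that setting, 3.11, departs from the value below only because nothing was added to the signals before taking log2. The log2 differences were 3.54 ± 0.21 and 3.05 ± 0.22 (SE, n = 3 and 3), with intervals that overlap, 3.04 to 4.04 and 2.52 to 3.58.

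Aldh1a2, the gene of the retinal dehydrogenase also called RALDH2, had the largest difference of the 7 genes. Its signals were 760.2, 1016.3 and 958.8 in primary Sertoli cells and 1.67, 1.01 and 1.71 in MSC-1 cells. Only 6.95% to 12.1% of the probe sets on an MSC-1 array were weaker than Aldh1a2, so it lay among the weakest signals there, and the ratio of the group means, 622.5, depends on how weak signals are handled. The log2 difference was 8.25 ± 0.21 (SE, n = 3 and 3, adjusted p = 2.06e-05, limma), and with weak signals raised to the array median it was 5.10, or 34.3-fold. The fold in the authors' deposited table, 54.5, lies between those 2 ratios. The mouse gene is known to be active in meiotic germ cells of the testis as well as in somatic cells of the embryo.

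Adh7, a class IV alcohol dehydrogenase that oxidises retinol, went the other way. Its signals were 18.7, 13.6 and 28.1 in primary Sertoli cells and 1440, 3802.1 and 1936.3 in MSC-1 cells. The primary signals lay around the array median, with 37.8% to 51.0% of probe sets weaker, whereas in MSC-1 cells Adh7 was stronger than 97.2% to 99.3% of probe sets. The log2 difference was -6.72 ± 0.43 (SE, n = 3 and 3, adjusted p = 0.000169, limma), and the ratio of MSC-1 to primary means was 119. The MSC-1 samples differed among themselves by more than those of most members, with an SD of 0.72 on the log2 scale against a median of 0.20 over the member probe sets, and leaving out the highest of them, replicate 2, gave -6.33.

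The promoter windows of Aldh1a2 and Adh7 are shown because these genes carry the largest difference in each direction. The sequences are RefSeq's, of build GRCm38.p6, and give the 250 bases before the start of transcription, 5′ to 3′ on the gene's strand. The Aldh1a2 window is chr9:71215539-71215788 on the plus strand and the Adh7 window is chr3:138217523-138217772 on the plus strand.
Aldh1a2: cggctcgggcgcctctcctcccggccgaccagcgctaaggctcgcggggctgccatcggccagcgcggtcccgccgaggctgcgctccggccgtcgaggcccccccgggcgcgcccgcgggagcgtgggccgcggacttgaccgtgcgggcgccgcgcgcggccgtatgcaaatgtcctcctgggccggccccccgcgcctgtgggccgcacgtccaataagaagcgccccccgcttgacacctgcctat
Adh7: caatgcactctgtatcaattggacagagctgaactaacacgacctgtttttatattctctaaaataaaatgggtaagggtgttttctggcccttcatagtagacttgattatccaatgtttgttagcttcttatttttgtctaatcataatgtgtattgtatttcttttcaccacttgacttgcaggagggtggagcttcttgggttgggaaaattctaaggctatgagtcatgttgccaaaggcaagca
The Aldh1a2 window has 77.6% G and C and 40 CG pairs, and the Adh7 window 38.0% and 1 CG pair, against medians of 52.4% and 6 pairs over the 32851 windows of the RefSeq table. Searched on both strands were AGGTCA, the half-site of nuclear receptors including those of retinoic acid, direct repeats of it with 1, 2 or 5 bases of any kind between the copies, CAAGGTCA, the site of steroidogenic factor 1, which overlaps the half-site, and AGATAA, a motif bound by factors of the GATA family. None of these letters occurs in either window, so nothing is in capitals. Of all windows, 14.0% hold the half-site, 0.033%, 0.009% and 0.009% the 3 repeats, 1.33% the steroidogenic factor site and 9.99% the GATA site.

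Of the 7 genes, 5 had windows in the table, 6 windows in all, since Rbp4 has a pair. For the genes higher in primary cells, the Rbp4 windows had 70.8% and 40.8% G and C, with 28 and 5 CG pairs. For the genes higher in MSC-1 cells, the Cyp26b1 window had 64.8% G and C with 7 CG pairs, and the Akr1cl window 44.0% with 0. The exact letters AGGTCA and their repeats were in 0 of the 6 windows, and only 14.0% of all windows hold AGGTCA. This says nothing about other spellings of the half-site, which were not searched, or about elements outside these 250 bases.

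Cyp26b1, the retinoic acid breaking enzyme that keeps germ cells of the fetal mouse testis out of meiosis, was higher in MSC-1 cells. Its signals were 22.9, 18.6 and 17.4 in primary Sertoli cells and 183.7, 264.5 and 206.6 in MSC-1 cells. All primary signals were under the array median and all MSC-1 signals well over it. The log2 difference was -3.37 ± 0.22 (SE, n = 3 and 3), with an interval of -3.90 to -2.84 and an adjusted p of 0.000179 (limma). Thus the listed breakdown gene and Adh7 were higher in MSC-1 cells, while the carrier gene Rbp4, Rdh10 and Aldh1a2 were higher in primary cells.

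**Figure D2:**
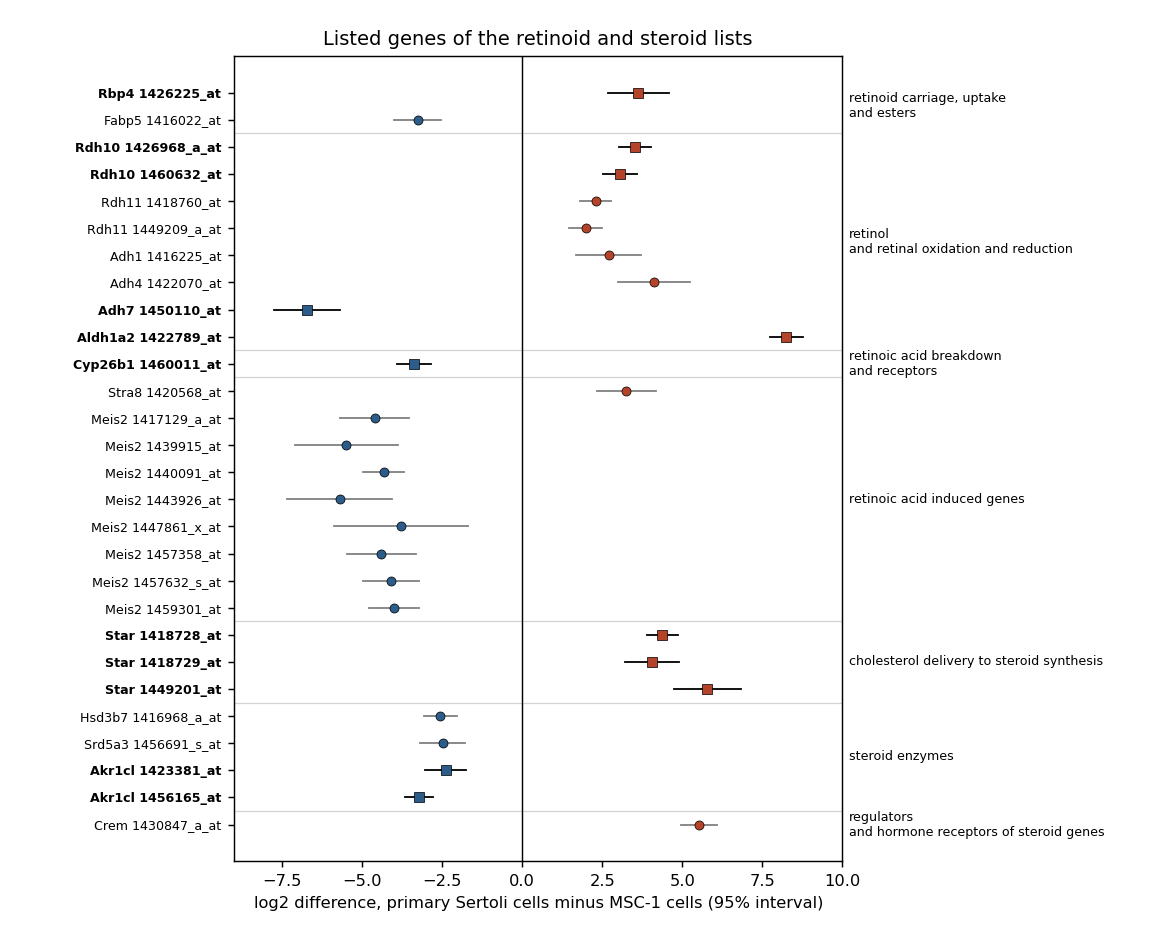
Log2 difference, primary Sertoli cells minus MSC-1 cells, with its 95% interval (limma), of listed probe sets of the retinoid and steroid gene lists. Squares with bold names are members and circles other list genes, red is higher in primary cells and blue higher in MSC-1 cells, and no interval reaches 0.

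The other genes of retinoid handling were taken from lists of 57 genes, of which 11 were in the authors' table, 5 of them members. Only genes in that table can be matched to a probe set here, so the other 46 were not analysed. Of the 11, 7 were called higher in primary cells and 4 higher in MSC-1 cells, which reflects the selection of the table at 4-fold and is read no further. The members excluded, those higher in primary cells were Rdh11, Adh1, Adh4 and Stra8, and those higher in MSC-1 cells were Fabp5 and Meis2.

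In the list of enzymes that oxidise or reduce retinol and retinal, 5 of the 6 genes found in the table were higher in primary cells and Adh7 was higher in MSC-1 cells. Of all listed probe sets 59.5% were higher in primary cells, and this list holds 23 genes, so the count is read no further. Retsat, the gene of retinol saturase, which is in the table but not in that list, was also higher in MSC-1 cells, with log2 differences of -2.92 and -3.59 in its pair of probe sets. Adh4, another alcohol dehydrogenase that oxidises retinol, had signals of 65.1, 71.9 and 83.2 in primary cells and of 7.32, 1.95 and 1.07 in MSC-1 cells, a log2 difference of 4.11 ± 0.46 (SE, n = 3 and 3). With weak signals raised to the array median, the Adh4 difference was 1.47. Adh1, the class I enzyme that clears excess retinol, had 352.3, 199.5 and 118.7 in primary cells and 23.6, 38.2 and 29.9 in MSC-1 cells, a log2 difference of 2.70 ± 0.42 (SE, n = 3 and 3). The primary samples of Adh1 were spread widely, with an SD of 0.78 on the log2 scale. In the RefSeq gene order of GRCm38.p6, Adh7 and Adh1 are direct neighbours among protein-coding genes, and Adh4 follows after 2 others, so within a run of 5 genes the listed ones had opposite directions. Rdh11, a microsomal enzyme that reduces retinal and oxidises retinol, was measured by a pair of probe sets with log2 differences of 2.30 and 1.98.

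Stra8, a gene that retinoic acid induces in germ cells before meiosis, had signals of 90.8, 209.2 and 127.5 in primary cells and of 10.1, 10.5 and 19.2 in MSC-1 cells. Its log2 difference was 3.25 ± 0.39 (SE, n = 3 and 3, adjusted p = 0.00129, limma), and 2.35 with weak signals raised to the array median. Meis2, a homeobox gene induced by retinoic acid in other cells, ran in the opposite direction in all of its 8 listed probe sets, with log2 differences between -5.70 and -3.78. Fabp5, a fatty acid binding protein that can also carry retinoic acid, had signals of 193.7, 383.4 and 288.2 in primary cells and of 2886.7, 3099.7 and 2165.6 in MSC-1 cells. The listed genes induced by or carrying retinoic acid thus did not share a direction.

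Star was higher in primary Sertoli cells in all 3 of its listed probe sets. Probe set 1418728 had signals of 425, 557.7 and 414.5 in primary cells and of 19.8, 19.4 and 23.3 in MSC-1 cells. Probe set 1418729 had 380.1, 429.3 and 338.8 in primary cells and 36.6, 18.6 and 14.2 in MSC-1 cells. Probe set 1449201 had 568.9, 563.7 and 460.5 in primary cells and 17.1, 6.47 and 4.49 in MSC-1 cells. Primary signals were alike in spread, with SDs of 0.17 to 0.24 on the log2 scale, while in MSC-1 cells the SDs were 0.13, 0.66 and 0.85. The log2 differences were 4.38 ± 0.20, 4.06 ± 0.35 and 5.78 ± 0.43 (SE, n = 3 and 3), a span of 1.72 between probe sets. With weak signals raised to the array median, the values lay between 3.69 and 4.32. All MSC-1 signals of Star but the 36.6 of 1418729 were then set to that median. The narrower span thus follows from the operation and does not show that the probe sets give the same value.

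Of the other genes around steroid synthesis, lists of 63 genes held 6 that were in the table, and the remaining 57 were not analysed. Star was the only listed gene of cholesterol delivery. Crem, a gene of cAMP-responsive transcription factors that is strongly active in meiotic and later germ cells, had signals of 544, 730.6 and 658.4 in primary cells and of 16.1, 10.8 and 10.8 in MSC-1 cells. Its log2 difference was 5.53 ± 0.23 (SE, n = 3 and 3), or 4.60 with weak signals raised to the array median, and it was called higher in primary cells.

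Of the 35 enzyme genes of the steroid lists, 3 were in the authors' table, and all 3 were higher in MSC-1 cells. So were 40.5% of all listed probe sets, and with 3 selected genes the shared direction is read no further. Akr1cl, filed in the table under its clone name 4921521F21Rik, was measured by a pair of probe sets. Probe set 1423381 had signals of 791.3, 667.4 and 432.1 in primary cells and of 3177.8, 3274.5 and 3187.7 in MSC-1 cells. Probe set 1456165 had 17.5, 22.7 and 21.4 in primary cells and 206.8, 195.9 and 205.3 in MSC-1 cells. In the first, both groups were strong, stronger than 91.1% or more of the probe sets on every array, so this difference does not depend on weak signals. The MSC-1 samples were closely alike, with SDs of 0.02 and 0.04 on the log2 scale, and the log2 differences were -2.39 ± 0.26 and -3.22 ± 0.18 (SE, n = 3 and 3).

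The Akr1cl window is shown because it holds the only match among the members' windows, a GATA site from base -241 to -236 before the start, given in capitals. It is chr1:65032760-65033009 on the minus strand of GRCm38.p6, from RefSeq, 5′ to 3′ on the gene's strand. A match of letters is not evidence that a factor binds there, and 9.99% of all windows have such a match.
Akr1cl: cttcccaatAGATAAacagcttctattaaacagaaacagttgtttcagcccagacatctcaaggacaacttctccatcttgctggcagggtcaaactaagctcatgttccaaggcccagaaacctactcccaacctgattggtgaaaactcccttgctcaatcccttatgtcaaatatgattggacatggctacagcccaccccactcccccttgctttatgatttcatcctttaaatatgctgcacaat
Hsd3b7, whose enzyme acts on sterols in bile acid synthesis, had signals of 122.8, 89.4 and 86.3 in primary cells and of 591.4, 616.5 and 545 in MSC-1 cells, a log2 difference of -2.55 ± 0.21 (SE, n = 3 and 3). Srd5a3, a reductase best known for making dolichol, had a log2 difference of -2.48 ± 0.29 (SE, n = 3 and 3). Neither of these is an enzyme of the classical route to testosterone, and no enzyme activity of Akr1cl was measured here.

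Listed markers of other cell types also differed between the groups, as their selection at 4-fold requires. Of 17 germ cell markers, 8 were in the table and all 8 were higher in primary cells, with summed signals of 4452.9 to 6855.5 in primary cells and of 49.4 to 74.6 in MSC-1 cells, and they were Sycp1, Spo11, Pgk2, Acrv1, Dmrtb1, Tex101, Piwil1 and Stra8. No array held a signal of 0 for any probe set, so a signal above 0 does not show that a marker was present. Of 9 peritubular markers, 4 were listed, Acta2, Tagln, Myl9 and Tpm2, all higher in primary cells, with sums of 1437 to 2552.3 in primary cells and of 109.5 to 133.1 in MSC-1 cells. The 2 of 13 macrophage markers listed, Fcgr3 and Mpeg1, were also higher in primary cells, with sums of 438.7 to 836 in primary cells and of 30.7 to 70 in MSC-1 cells. The part of these cells in the primary signals of Aldh1a2, Crem, Star, Rdh10 and Rbp4 was not tested.

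None of the 7 Leydig cell markers, Insl3 and Cyp17a1 among them, and none of the 6 endothelial markers was in the table, so neither list could be measured beside Star. On the MSC-1 side, 6 of 10 markers of Schwann cells and melanocytes were listed, Sox10, Mbp, Cdh19, Dct and Mitf among them, all higher in MSC-1 cells, with sums of 83.5 to 119.8 in primary cells and of 6652.1 to 10274.3 in MSC-1 cells, and their part in the MSC-1 signals of Adh7, Cyp26b1 and Akr1cl was not tested. Of 21 Sertoli cell markers, 9 were listed, with 7 higher in primary cells, Sox9, Inha, Clu, Aard, Cst12 and Defb19 among them, and 2 higher in the line, Ptgds and Trf. Sox9, which fixes Sertoli cell fate, had signals of 115.9, 198.4 and 220.4 in primary cells and of 41.7, 43.0 and 30.1 in MSC-1 cells, so it was above the array median in all 6 samples.

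Set among all probe sets of the arrays, the members lay at the outer edge of the differences, as their selection requires. The median size of the log2 difference was 3.62 over the 11 member probe sets, 3.29 over all 3198 listed probe sets and 0.72 over all 45101. Their replicates were somewhat closer together, with a median SD on the log2 scale of 0.23 for primary cells and 0.20 for MSC-1 cells, against 0.33 and 0.28 over the listed probe sets. Nearest to the selection threshold was Akr1cl probe set 1423381, at 4.51-fold in the authors' deposited table, and probe sets of these genes outside the table cannot be identified by name here.

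**Figure D3:**
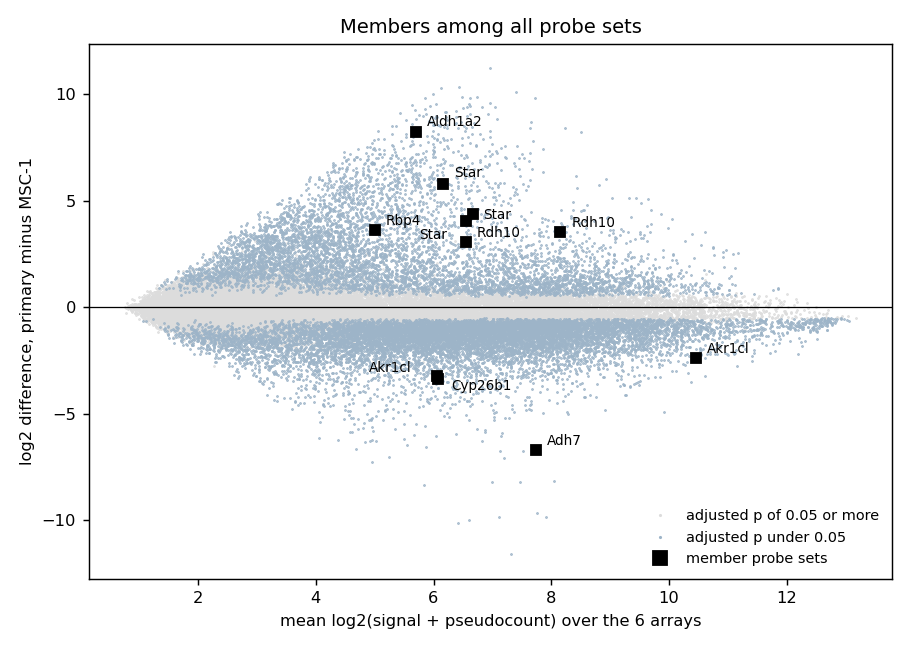
Log2 difference, primary Sertoli cells minus MSC-1 cells, against the mean log2(signal + 1.53) over the 6 arrays for all 45101 probe sets, in darker blue those with an adjusted p under 0.05 (limma), with the 11 member probe sets as black squares. Aldh1a2 at 8.25 and Adh7 at -6.72 are the members farthest from 0.

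The authors' deposited folds were often smaller than the ratios of the array signals. In the authors' deposited table Aldh1a2 stood at 54.5-fold and the Star probe set 1449201 at 29.1-fold, against ratios of primary to MSC-1 mean signals of 622.5 and 56.8. The reverse held for Rdh10, at 17.1-fold and 13.5-fold in the authors' deposited table and at 11.8 and 8.72 by ratio, and for the Star probe set 1418728, at 37.2-fold against 22.4. For Adh7 the authors' deposited table gave 72.5-fold against a ratio of MSC-1 to primary means of 119. In 8 of the 11 member probe sets, and in 75.1% of all listed probe sets, the ratio of signals was larger in size than the deposited fold. The largest ratio in the table was 1788 and the largest deposited fold 113.8, and no source used here says how the authors computed their folds.

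**Figure D4:**
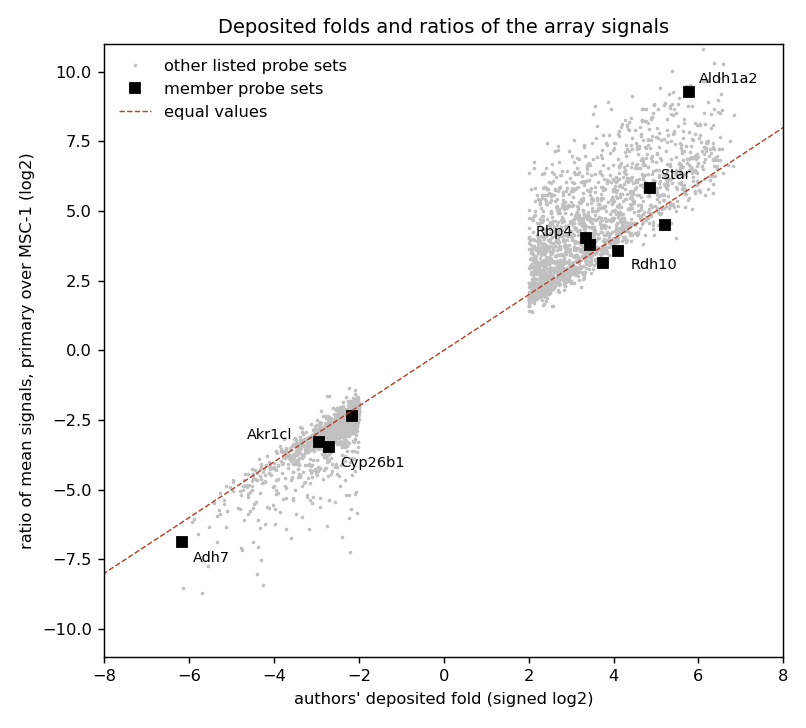
Ratio of mean signals, primary over MSC-1, against the authors' deposited fold, both as signed log2 values, for the 3198 listed probe sets, with the 11 member probe sets as black squares and equal values as a dashed line. Aldh1a2 lies farthest above the line among the members, and the Rdh10 probe sets lie below it.

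Among named genes of the table, those with profiles nearest to a member were found by the distance between log2 profiles over the 6 arrays, each centred on its mean. Nearest to Aldh1a2 were Pgam2, a muscle and testis form of phosphoglycerate mutase, at a distance of 0.37, and the clone gene 1700086L19Rik at 0.40. Nearest to Star were Tc2n at 0.28 and Cfap70 at 0.31, nearest to Rdh10 were Supt20 at 0.18 and Ahi1 at 0.26, and nearest to Rbp4 were Cklf at 0.43 and Sugp2 at 0.50. On the MSC-1 side, Adh7 had C1ql3 at 1.03 and Kcna1 at 1.10, Cyp26b1 had Entpd2 at 0.19 and Trnp1 at 0.22, and Akr1cl had Slc25a15 at 0.16 and Inpp1 at 0.18. With 6 arrays in 2 groups, such a distance mostly reflects the size of the group difference.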

How the data were processed

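Total RNA of 6 samples, 3 of primary Sertoli cells and 3 of MSC-1 cells, was labelled with biotin from 10 ug per sample and hybridised to Affymetrix arrays, per the labels' protocols. The submitters' processing notes name GCOS, Affymetrix's software, without saying what it did. The deposited intensity values are linear, 1 per probe set and array, and the mean over probe sets, leaving out 2% at each end, was 125 on all arrays, so the authors had scaled them. A second file holds the authors' signed folds, with the symbols used here. How the folds were made is not stated.

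Array medians differed by more than 1.2-fold, so each array was rescaled to the common median (factors 0.885 to 1.145), the pooled 10th percentile was added and log2 values were tested with limma 3.58.1 in R 4.3.3 in a 2-group fit, which was tested on simulated data. The number of arrays limits the precision. No detection calls were used. Symbols were updated through the RefSeq table of GRCm38.p6. Of the 3198 listed probe sets, 3069 have 1 symbol, 79 several and 50 none. The probe set with the highest mean stood for a list gene. Named are all members, called genes of the pathway lists at 4-fold or more in at least 1 probe set, marker genes found in the table and the 2 nearest profiles per member. Of the lists, 2 genes are counted but not reported here. The members and lists were chosen with earlier results of these data known. Same-numbered samples did not deviate together (correlations -0.02, -0.04 and 0.01), so replicate numbers were not taken as pairs. Figures were drawn with matplotlib 3.10.9 in Python 3.11.15.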

Additional observations from a re-analysis of the deposited data

How the results depend on the processing

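All 11 member probe sets kept their direction and an adjusted p under 0.05 (limma) in each of 14 alternatives, and the largest adjusted p was 0.009, for Rbp4 with the replicate number as a block. Their selection at 4-fold on these same arrays makes this likely in advance, so it is not support. In the main fit 3197 of the 3198 listed probe sets passed, and their share in the alternatives is not given here. The alternatives were quantile normalization, pseudocounts at the 1st and 25th percentile, leaving out weak probe sets, another variance model, the replicate block and leaving out each array, and, chosen after seeing the data, the deposited scaling and raising weak signals to the array median. With 1 array left out, Aldh1a2 ranged from 8.13 to 8.39, Adh7 from -7.03 to -6.33, Rbp4 from 3.27 to 3.92 and Cyp26b1 from -3.49 to -3.22. The Star probe set 1449201 ranged from 4.32 with weak signals raised to 6.25 without MSC-1 replicate 1. With the pseudocount at the 1st percentile Aldh1a2 reached 9.01. With the replicate block, all 11 members and the same counts of list genes were called, and 14412 probe sets were called in all, against 17818 without it. All calls ranged from 13716 to 17270 with 1 array left out. The 11 retinoid and 6 steroid list genes, which come from the same selected table, were called in every alternative. How signal stands over background limits the folds of several members and list genes, since 1 of their groups lay around or under the array median. Among the members they are Aldh1a2, Rbp4, Star, Adh7, Cyp26b1, Rdh10 probe set 1460632 and Akr1cl probe set 1456165. Among the other named retinoid and steroid list genes they are Adh4, Adh1, Stra8, Crem, Meis2 and Srd5a3. The same limit holds for Clvs1 and Retsat probe set 1424716, named below, in primary cells. It also holds for many marker genes, among them Sycp1, Spo11, Piwil1 and Fcgr3 in MSC-1 cells and Sox10 and Dct in primary cells.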

Other observations

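Besides the lists, the titles of the authors' table were searched for retinol, retinal, retinoic acid and steroid, a search made after the values were seen. It added 2 genes, and both were higher in MSC-1 cells. Retsat, the gene of retinol saturase, had signals of 52.9, 43.2 and 52.0 in primary Sertoli cells and of 427.2, 349.3 and 375.1 in MSC-1 cells in probe set 1424715. The other Retsat probe set, 1424716, had a log2 difference of -3.59 ± 0.19 (SE, n = 3 and 3, adjusted p = 8.8e-05, limma). Clvs1, filed as a retinaldehyde binding protein-like gene, had signals of 7.12, 8.89 and 7.18 in primary cells and of 48.7, 82.8 and 53.3 in MSC-1 cells.

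The authors' table does not hold every large difference. By the log2 difference tested with limma, 2592 probe sets outside it differed by at least 4-fold and passed the test (adjusted p under 0.05, limma). By the ratio of mean signals, which is another measure, 132 probe sets inside it were under 4-fold.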
